A study of Mus musculus with 2 samples.

Results

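C-type lectin receptors are read here through 41 of the 47643 genes in the deposited table: those named Clec with a number and a letter, Mgl2, and Cd209a to Cd209g. The rule used names alone and no measured value, though it was set with earlier results of these data known. Macrophages derived with lysophosphatidic acid (LPA, a signalling phospholipid) from bone marrow monocytes were set against bone marrow monocytes. Both came from wild-type C57BL/6 mice aged 6 weeks, and each group is 1 RNA sequencing library. No library of cells cultured without LPA was analysed here, so LPA, culture and differentiation cannot be told apart. The labels used here do not say whether animals were pooled.

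Unique exon reads, those that fit only 1 place and lie within exons, numbered 16726342 in the macrophage library and 12473180 in the monocyte library. CPM is the exon count scaled to that total, as counts per 1e+06 reads, and RPKM is the authors' level per kilobase of exon. With 1 library per group no difference has a replicate check and no test was made, so intervals cover counting error only. The labelled cell types were checked against markers. Of 6 macrophage markers, 5 were at least 2-fold higher in macrophages (Adgre1 stood at 1138 CPM in macrophages and 107.3 CPM in monocytes). All 6 monocyte markers were at least 2-fold lower in macrophages (Ly6c2 stood at 59.1 CPM in macrophages and 1849 CPM in monocytes). Of all genes at 5 CPM or more in at least 1 library, 13.8% were higher and 19.9% lower. Neutrophil markers were high in both libraries. In macrophages 8 of them summed to 5688 CPM, against 4943 CPM for the macrophage markers. In monocytes they summed to 18650 CPM, against 5892 CPM for the monocyte markers. The purity of either library was not tested. In bulk libraries fewer cells of a type and less RNA per cell cannot be told apart, and this holds for every difference below.

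C-type lectin receptors carry a folded domain that in many members binds sugars, often with the help of calcium. Myeloid cells use them to recognise fungi, mycobacteria and dead cells. Activating members signal through the kinase Syk, either by a tyrosine motif of their own or by the adaptors FcR gamma (Fcer1g) and DAP12 (Tyrobp). Inhibitory members recruit the phosphatases SHP-1 (Ptpn6) and SHP-2 (Ptpn11), and a further group, with Mgl2 and Cd209a, takes up glycoproteins. Some genes with the Clec name encode secreted or intracellular proteins instead.

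The members' clearest contrast lay between a pair of neighbours on chromosome 6. Clec4d, the gene of the receptor MCL, lies at chr6:123262111-123275265 (GRCm38, plus strand), and Clec4e, the gene of Mincle, lies at chr6:123281789-123289870 on the minus strand. They stand tail to tail with 6.52 kb between them. Their start regions are shown because their differences had opposite signs, and that of Clec7a (dectin-1) because it was the highest member in both libraries. Those of Mgl2 and Cd209a are shown because they were the members above 5 CPM that were lowest relative to monocytes. Each sequence runs 5′ to 3′ from 250 bases before the RefSeq start to 50 bases after it (GRCm38.p6). Capitals mark GAGGAA, the core that the myeloid factor PU.1 prefers, and TTGCNNAA, a C/EBP-type motif, on either strand.
Clec4d, chr6:123261857-123262156, plus strand: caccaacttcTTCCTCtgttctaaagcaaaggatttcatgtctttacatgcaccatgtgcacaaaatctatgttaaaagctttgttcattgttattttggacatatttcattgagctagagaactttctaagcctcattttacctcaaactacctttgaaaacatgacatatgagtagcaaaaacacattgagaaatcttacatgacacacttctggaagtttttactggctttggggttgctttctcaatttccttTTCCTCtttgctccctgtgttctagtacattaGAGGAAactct
Clec4e, chr6:123289822-123290121, minus strand: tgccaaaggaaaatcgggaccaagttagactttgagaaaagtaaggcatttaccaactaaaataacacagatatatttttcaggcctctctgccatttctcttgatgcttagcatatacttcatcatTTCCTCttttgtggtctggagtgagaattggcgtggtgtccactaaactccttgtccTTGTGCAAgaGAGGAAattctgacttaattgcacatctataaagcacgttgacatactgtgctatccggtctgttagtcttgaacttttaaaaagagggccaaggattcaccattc
Clec7a, chr6:129472730-129473029, minus strand: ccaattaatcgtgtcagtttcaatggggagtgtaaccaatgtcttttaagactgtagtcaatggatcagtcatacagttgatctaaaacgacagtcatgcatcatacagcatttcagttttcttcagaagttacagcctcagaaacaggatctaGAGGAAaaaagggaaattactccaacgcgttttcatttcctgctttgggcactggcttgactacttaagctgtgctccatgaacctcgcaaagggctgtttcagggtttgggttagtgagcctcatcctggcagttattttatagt
Mgl2, chr11:70130107-70130406, plus strand: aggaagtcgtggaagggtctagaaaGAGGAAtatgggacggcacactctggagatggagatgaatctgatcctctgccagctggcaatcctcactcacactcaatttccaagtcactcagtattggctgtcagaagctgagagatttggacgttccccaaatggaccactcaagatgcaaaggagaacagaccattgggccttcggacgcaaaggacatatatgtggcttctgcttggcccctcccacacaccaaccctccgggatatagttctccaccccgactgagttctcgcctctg
Cd209a, chr8:3748935-3749234, minus strand: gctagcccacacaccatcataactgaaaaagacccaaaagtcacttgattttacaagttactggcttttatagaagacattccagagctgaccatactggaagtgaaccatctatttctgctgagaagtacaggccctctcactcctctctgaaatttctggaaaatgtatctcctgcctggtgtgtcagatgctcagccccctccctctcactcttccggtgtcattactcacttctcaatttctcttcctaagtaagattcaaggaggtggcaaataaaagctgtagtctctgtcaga

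Clec4d held GAGGAA at 3 places, Clec4e at 2, and Clec7a and Mgl2 at 1 each. The C/EBP-type motif appeared in Clec4e alone of these 5 windows, and Cd209a held neither. RefSeq gave a start region for 33 of the 41 members. Among the 17 of these that reached 5 CPM, 10 held GAGGAA on either strand, against 28.3% of the 27025 start regions of the same length. TTGCNNAA was in 5 of the 17, against 10.8% of all regions. TGANTCA, an AP-1 motif, was in 2 of the 17, against 7.93% of all regions. Over all 33 members with a start region, GAGGAA was in 16, TTGCNNAA in 6 and TGANTCA in 8. The 27025 regions were not limited to genes that reached 5 CPM, so they are no like set for the 17. Matches of different motifs may share letters, the motifs were picked after the values were known, and a match is only a description of the letters.

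Of the 41 members, 19 reached 5 CPM in at least 1 library. In the macrophages 5 of the 19 (26.3%) were at least 2-fold higher: Clec4d, Clec1b, Clec2d, Clec4n and Clec7a. Without Clec2d, whose ratio differs in direction between kinds of read (below 1 by few junction reads), 4 of 18 (22.2%) were higher. At least 2-fold lower were 6 of the 19 (31.6%), namely Mgl2, Cd209a, Clec4e, Clec11a, Clec5a and Clec2i. The remaining 8 lay within 2-fold. Among all 10407 genes at that level 13.8% were at least 2-fold higher, 19.9% at least 2-fold lower and 33.8% either, on log2(CPM + 1). That split became 17.4% higher and 14.6% lower relative to the median of all genes, and 17.1% higher and 14.98% lower with TMM scaling. The median log2 ratio of the 19 members was -0.28 (-0.49 without Clec2d), and that of all genes was -0.23. Relative to the median of all genes on log2(CPM + 1), 5 members were higher and 4 lower, with Clec11a and Clec2i then within 2-fold. As CPM ratios centred in the same way, Clec11a was still 2.52-fold lower and Clec2i 1.95-fold lower. The 41 members summed to 2373 CPM in macrophages and 1558 CPM in monocytes.

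**Figure D1:**
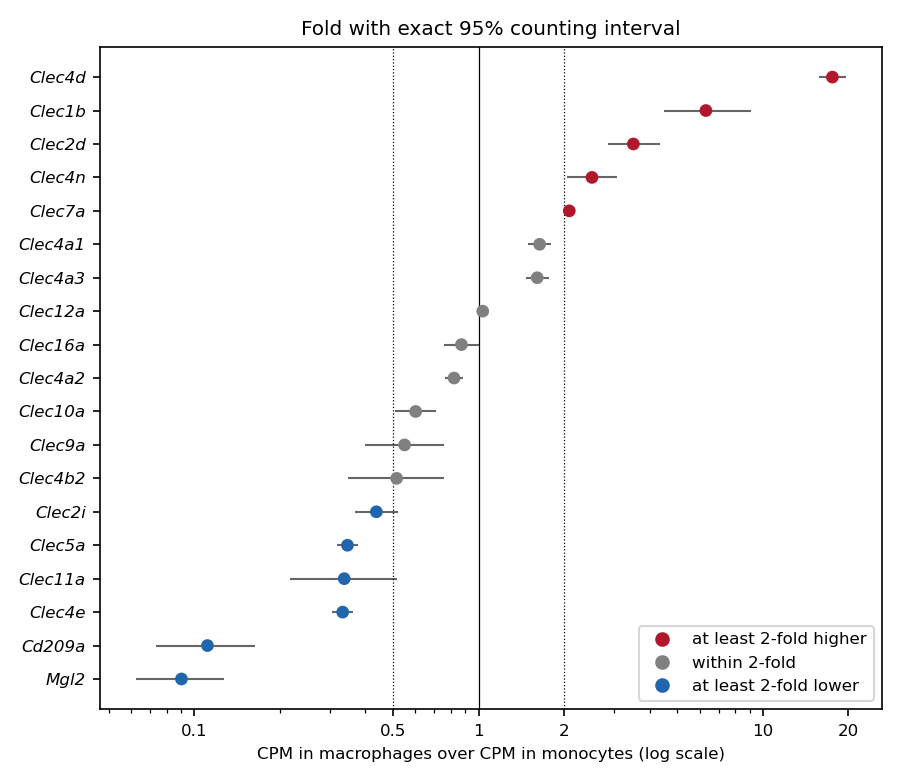
The CPM ratio of LPA-derived macrophages over monocytes is drawn on a log axis for the 19 members at 5 CPM or more in at least 1 library. Bars are exact 95% counting intervals, dotted lines mark 2-fold, and Clec4d at 17.6 and Mgl2 at 0.0902 are the extremes.

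Activating receptors went both ways. Of these 9 genes, 4 were at least 2-fold higher in macrophages, 2 were lower, 2 lay within 2-fold and Clec4b1 was under 5 CPM. Clec7a encodes dectin-1, the receptor of fungal beta-glucans that carries its own tyrosine motif (chr6:129461591-129472779, minus strand). It had 16865 exon reads (1008 CPM) in macrophages and 6029 reads (483.4 CPM) in monocytes. The ratio was 2.09 (95% interval 2.03 to 2.15). It stood only just past 2-fold, and at 1.82 when only reads across exon junctions were counted. Per length it was the highest member in both libraries, at 336.7 RPKM in macrophages and 153.9 RPKM in monocytes.

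Clec4d had 7684 exon reads (459.4 CPM) in macrophages and 326 reads (26.1 CPM) in monocytes. Its ratio of 17.6 (15.7 to 19.7) was the largest among the 19 members. Per length it was second in macrophages, at 253.1 RPKM, and eighth in monocytes, at 13.7 RPKM. MCL is known to pair with Mincle at the cell surface and to bind mycobacterial glycolipid. Clec4e, the Mincle gene, had 754 reads (45.1 CPM) in macrophages and 1689 reads (135.4 CPM) in monocytes, a ratio of 0.333. It was lower in macrophages by 2.76-fold to 3.28-fold (95% interval). Thus the level of Clec4d was 31.6 times that of Clec4e per length in macrophages, and 0.599 times that of Clec4e in monocytes. The direction for either gene was the same under every scaling, read type and deposited fold change compared.

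Clec4n encodes dectin-2, a receptor of fungal mannans that signals through FcR gamma, and is the next gene upstream of Clec4d, 15.1 kb away. It had 427 reads (25.5 CPM) in macrophages and 127 reads (10.2 CPM) in monocytes, a ratio of 2.51 (2.05 to 3.08). With intron reads included the ratio was 1.64, and the authors' deposited table gives 1.89. Clec5a encodes MDL-1, which pairs with DAP12 and lies on chromosome 6 away from the other members. It had 748 reads (44.7 CPM) in macrophages and 1612 reads (129.2 CPM) in monocytes, 2.89-fold lower (2.65 to 3.16). The intervals of Clec4e and Clec5a overlapped. Neutrophil markers also differed between the libraries. Of 8, 5 were at least 2-fold lower in macrophages (19.9% of all genes were) and 2 were higher (13.8% of all genes were). Ly6g lay within 2-fold. The 8 summed to 5688 CPM in macrophages and 18650 CPM in monocytes, with none at 0. Camp, a granule gene, stood at 74.4 CPM in macrophages and 1802 CPM in monocytes, and Cxcr2, a chemokine receptor gene, at 167.5 CPM in macrophages and 18.3 CPM in monocytes. The part of neutrophils in the differences of Clec4d, Clec4e and Clec5a was not tested.

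Clec1b encodes CLEC-2, the podoplanin receptor of platelets, which some mouse myeloid cells also carry. It had 313 reads (18.7 CPM) in macrophages and 37 reads (2.97 CPM) in monocytes, a ratio of 6.31 (4.48 to 9.13). Platelet and megakaryocyte markers moved with it. Of 6 such markers, 5 were at least 2-fold higher in macrophages on log2(CPM + 1), where 13.8% of all genes were. Gp1bb, with a CPM ratio of 2.11, lay just within. The 6 summed to 424.1 CPM in macrophages and 100.2 CPM in monocytes, and none was at 0 in either library. Pf4, a platelet chemokine gene that macrophages can also express, stood at 125.4 CPM in macrophages and 26.2 CPM in monocytes. Ppbp, another platelet chemokine gene, stood at 115.6 CPM in macrophages and 15.4 CPM in monocytes. The part of platelet material in the Clec1b difference was not tested. Pdpn, the gene of the ligand podoplanin, had 74 reads in macrophages and 13 in monocytes, both under 5 CPM.

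Clec9a encodes DNGR-1, a receptor by which cross-presenting dendritic cells detect exposed actin. It had 70 reads (4.19 CPM) in macrophages and 95 reads (7.62 CPM) in monocytes, 1.82-fold lower (1.32 to 2.51). Its annotated span overlaps that of Clec1b by 474 bases on the same strand, so exon reads of this pair are uncertain. Junction reads of Clec9a numbered 11 in macrophages and 41 in monocytes, which made it 4.74-fold lower. Clec4b2, of the DCAR type, had 47 reads in macrophages and 68 in monocytes, 1.94-fold lower (1.32 to 2.88). It was past 2-fold with introns included, at 2.24-fold lower, and in the authors' deposited table, at a signed fold of -2.29. Clec4b1, also of that type, had 3 reads in macrophages and 0 in monocytes.

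**Figure D2:**
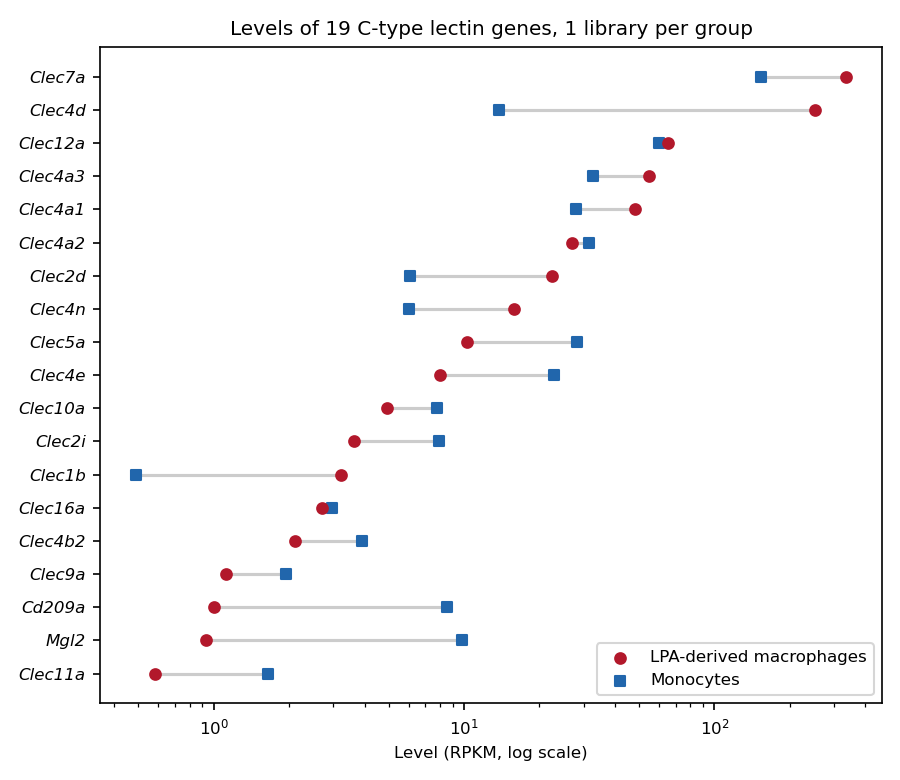
Levels of the 19 members in RPKM on a log axis, with circles for the LPA-derived macrophage library and squares for the monocyte library, ordered by the macrophage level. Clec7a (336.7 and 153.9 RPKM in macrophages and monocytes) leads both libraries, and Clec4d (253.1 and 13.7 RPKM) has the longest line.

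Among the inhibitory receptors and their DCIR relatives no gene was past 2-fold. Of 6 genes, 4 reached 5 CPM and all 4 lay within 2-fold, where 33.8% of all genes were past it. Summed levels of the 6 were 667.5 CPM in macrophages and 609.2 CPM in monocytes. Clec12a, the gene of the inhibitory receptor MICL, which binds uric acid crystals, was among the highest members in both. It had 6846 reads (409.3 CPM) in macrophages and 4934 reads (395.6 CPM) in monocytes, a ratio of 1.03 (0.997 to 1.07). Clec4a2, the gene of the inhibitory receptor DCIR, stood at 89.9 CPM in macrophages and 109.5 CPM in monocytes, 1.22-fold lower (1.13 to 1.31).

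Clec4a1 and Clec4a3, relatives of DCIR that lie next to each other on chromosome 6, were both higher in macrophages but within 2-fold. Clec4a1 stood at 85.5 CPM in macrophages and 52.1 CPM in monocytes, a ratio of 1.64 (1.49 to 1.80). For Clec4a3 the levels were 82.8 CPM in macrophages and 51.5 CPM in monocytes, a ratio of 1.61 (1.46 to 1.77). The authors' deposited table puts both just past 2-fold, at 2.06 and 2.10. These paralogs are similar, reads that fit several places were not counted as unique, and their levels are uncertain to that extent. Clec4a4 had 1 read in macrophages and 5 in monocytes, and Clec12b had 0 reads in macrophages and 1 in monocytes.

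Of the 11 Clec and Cd209 genes whose products take up glycans, 3 reached 5 CPM. Mgl2 and Cd209a were at least 2-fold lower in macrophages (19.9% of all genes were) and Clec10a lay within 2-fold. The 11 summed to 20.6 CPM in macrophages and 72.0 CPM in monocytes. Mgl2, whose product binds terminal galactose and N-acetylgalactosamine, had 37 reads (2.21 CPM) in macrophages and 306 reads (24.5 CPM) in monocytes. It was 11.1-fold lower (7.87 to 16.1). Its neighbour and near relative Clec10a, the gene of MGL1, lies 18.6 kb away. Clec10a had 270 reads (16.1 CPM) in macrophages and 335 reads (26.9 CPM) in monocytes, 1.66-fold lower (1.41 to 1.96). The intervals of these ratios did not overlap.

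Cd209a, a mouse relative of human DC-SIGN, had 30 reads (1.79 CPM) in macrophages and 201 reads (16.1 CPM) in monocytes, 8.98-fold lower (6.10 to 13.7). By junction reads, 7 in macrophages and 94 in monocytes, it was 17.1-fold lower. It was the only one of the 8 genes in its chromosome 8 group, Clec4g to Cd209g, to reach 5 CPM. Cd209f came next, with 3 reads in macrophages and 32 in monocytes. The other 6 had between 0 and 2 reads in macrophages and between 2 and 5 in monocytes. Clec4f, a Kupffer cell receptor gene, had 0 exon reads in both libraries, which allows up to 0.179 CPM in macrophages and 0.241 CPM in monocytes.

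Dendritic cell markers went both ways. Of 10 such markers 7 reached 5 CPM, of which 4 were at least 2-fold lower in macrophages, 2 were higher and 1 lay within 2-fold. Among all genes 19.9% were lower and 13.8% higher. The 10 markers summed to 123.2 CPM in macrophages and 227.4 CPM in monocytes. None was at 0 in either library. Flt3, the growth factor receptor of dendritic cell precursors and other progenitors, stood at 1.26 CPM in macrophages and 50.4 CPM in monocytes. Dpp4 stood at 1.61 CPM in macrophages and 40.1 CPM in monocytes. Zbtb46, a transcription factor of conventional dendritic cells, had 13 reads in macrophages and 41 in monocytes. Xcr1, a marker of cross-presenting dendritic cells, had 6 reads in macrophages and 12 in monocytes. In the opposite direction, Ccr7 stood at 12.4 CPM in macrophages and 2.33 CPM in monocytes, and Batf3 at 8.67 CPM in macrophages and 2.16 CPM in monocytes. The part of dendritic cells in the differences of Mgl2, Cd209a and Clec9a was not tested.

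Several genes of the Clr family encode surface ligands of the NKR-P1 receptors on natural killer cells. Of the 8 Clec2 genes grouped here, only Clec2d and Clec2i reached 5 CPM. Clec2l is among the 8 by its name and lies on chromosome 6 away from the others. Clec2d, the gene of Clr-b, had 517 exon reads (30.9 CPM) in macrophages and 110 reads (8.82 CPM) in monocytes, a ratio of 3.50 (2.85 to 4.35). Few of these reads crossed an exon junction: 4 (0.774% of exon reads) in macrophages and 10 (9.09%) in monocytes. The median share of junction reads over all genes at 5 CPM was 41.0% in macrophages and 42.3% in monocytes. By these 4 and 10 junction reads the Clec2d ratio was 3.18-fold lower in macrophages, too few reads to set a direction. With so few of its reads across junctions, the exon count of this gene gives no settled direction either.

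Clec2i, the gene of Clr-g, had 214 reads (12.8 CPM) in macrophages and 365 reads (29.3 CPM) in monocytes, 2.29-fold lower (1.93 to 2.72). It was 1.95-fold lower relative to the median of all genes and 1.88-fold lower in the authors' deposited table. It overlaps BC035044 on the opposite strand by 3539 bases, a gene with 15 exon reads in macrophages and 723 in monocytes. The labels do not say whether counting used strand, so exon reads of this pair cannot be told apart. By junction reads, 32 in macrophages and 67 in monocytes, Clec2i was 2.66-fold lower. Klrb1f, which encodes the receptor of Clr-g, stood at 0.837 CPM in macrophages and 30.8 CPM in monocytes. The other NKR-P1 genes listed, Klrb1a, Klrb1b and Klrb1c, had 28, 1 and 11 reads in macrophages and 0, 1 and 7 reads in monocytes. Of 6 natural killer cell markers only Nkg7 reached 5 CPM, at 1.49 CPM in macrophages and 106.9 CPM in monocytes, and Eomes and Gzma were at 0 in macrophages.

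Among the genes with secreted or other products, Clec11a encodes a growth factor secreted by marrow stroma. It had 33 reads (1.97 CPM) in macrophages and 73 reads (5.85 CPM) in monocytes, 2.97-fold lower (1.94 to 4.62), close to the lowest level considered. Stromal and bone markers were also lower: of 6, 4 reached 5 CPM and 3 were at least 2-fold lower (19.9% of all genes were). The 6 summed to 877.6 CPM in macrophages and 1800.2 CPM in monocytes. Relative to the median of all genes on log2(CPM + 1), Col1a1 and Col1a2 were within 2-fold, as was Clec11a itself. The CPM ratio of Clec11a, centred in the same way, was still 2.52-fold lower. Bglap, an osteoblast gene, was at 0 reads in macrophages and 295 in monocytes. The part of stromal cells in the Clec11a difference was not tested. Clec16a, which encodes an intracellular regulator of mitophagy rather than a receptor, stood at 25.8 CPM in macrophages and 29.6 CPM in monocytes, 1.15-fold lower (0.996 to 1.32).

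Clec1a, mostly an endothelial gene in mice, was under 5 CPM with 71 reads in macrophages and 16 in monocytes. Its ratio was 3.31 (1.90 to 6.10). It joined the higher members at a floor of 1 CPM, with no floor, and with totals without the top 20 genes. Clec14a, another endothelial gene, had 0 reads in macrophages and 4 in monocytes, and Clec3b had 3 reads in macrophages and 2 in monocytes. Of 6 endothelial markers, Pecam1 and Tie1 reached 5 CPM and both were at least 2-fold lower in macrophages, where 19.9% of all genes were. Pecam1 was no longer so relative to the median of all genes. Members without an exon read in either library were Clec2l, Clec4f, Clec2j, Clec2h, Clec18a and Clec3a, of which Clec2l had 4 intron reads in macrophages and 1 in monocytes, and Clec18a 0 in macrophages and 3 in monocytes. All 22 members under 5 CPM had between 0 and 71 exon reads in macrophages and between 0 and 32 in monocytes.

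Most members lie in a few groups of neighbours under 500 kb apart. Among all genes at 5 CPM, 13.8% were at least 2-fold higher in macrophages and 19.9% lower. The Clec4 group of chromosome 6 holds 9 members, of which 7 reached 5 CPM, with 2 higher, 1 lower and 4 within 2-fold. Its summed level was 791.2 CPM in macrophages and 390.7 CPM in monocytes. The group from Clec2j to Clec7a, on the same chromosome, holds 13 members, of which 6 reached 5 CPM, with 3 higher, 1 lower and 2 within 2-fold. Its summed level was 1489 CPM in macrophages and 930.0 CPM in monocytes. The lower gene of the first group is Clec4e. That of the second is Clec2i, which was within 2-fold relative to the median of all genes, where no gene of this group was lower. The exon reads of Clec2i cannot be told apart from those of BC035044, and by junction reads it was 2.66-fold lower. Clec2d, of unsettled direction, is among the 3 higher genes of the second group.

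**Figure D3:**
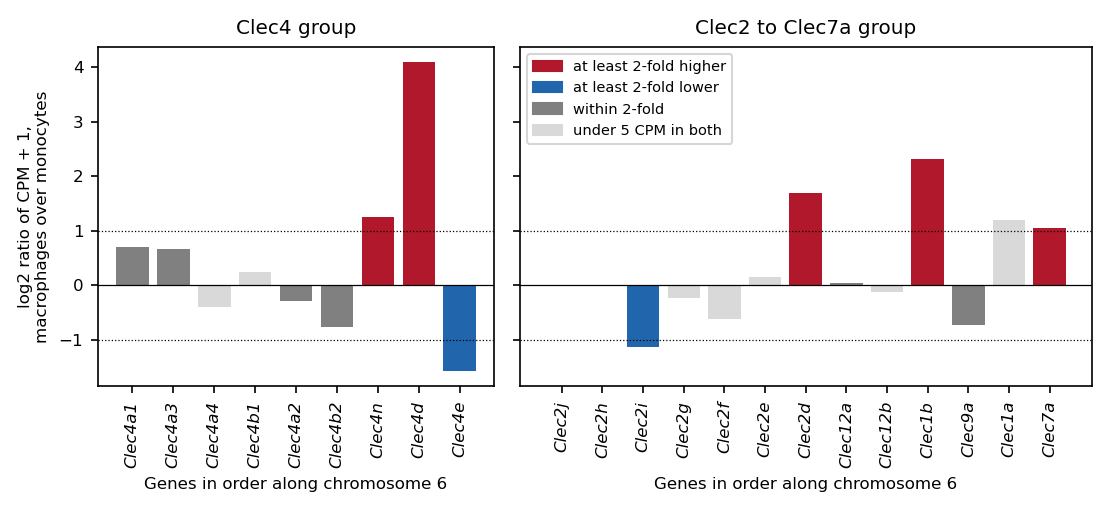
The log2 ratio of CPM + 1, macrophages over monocytes, for the members of the chromosome 6 groups in the order of their position. Clec4d at 4.08 stands beside Clec4e at -1.57, and pale bars are genes under 5 CPM in both libraries.

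Clec4d and Clec4n were the only members of the 19 whose 95% intervals of the intron share did not overlap between the libraries. Overlapping intervals do not show equal shares. For Clec4a3, whose intervals barely overlapped, introns took 12.1% (10.5 to 13.8) in macrophages and 8.42% (6.58 to 10.7) in monocytes. For Clec4d, introns took 20.7% of gene reads (2002 of 9686, 95% Wilson interval 19.9 to 21.5) in macrophages and 60.1% (491 of 817, 56.7 to 63.4) in monocytes. For Clec4n, introns took 21.1% (114 of 541, 17.8 to 24.7) in macrophages and 50.8% (131 of 258, 44.7 to 56.8) in monocytes. The median over all genes at 5 CPM was 11.1% in macrophages and 14.8% in monocytes, and over the 19 members it was 9.59% in macrophages and 10.5% in monocytes. Clec7a showed 7.67% in macrophages and 8.04% in monocytes, and Clec4e 9.59% in macrophages and 6.89% in monocytes. Of the 19 members, 10 had the lower intron share in macrophages, against 67.3% of all genes. With introns included the ratio of Clec4d was 9.28, and the deposited fold change, which rests on gene reads, was 10.5 in the authors' deposited table. Junction reads gave 21.3.

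**Figure D4:**
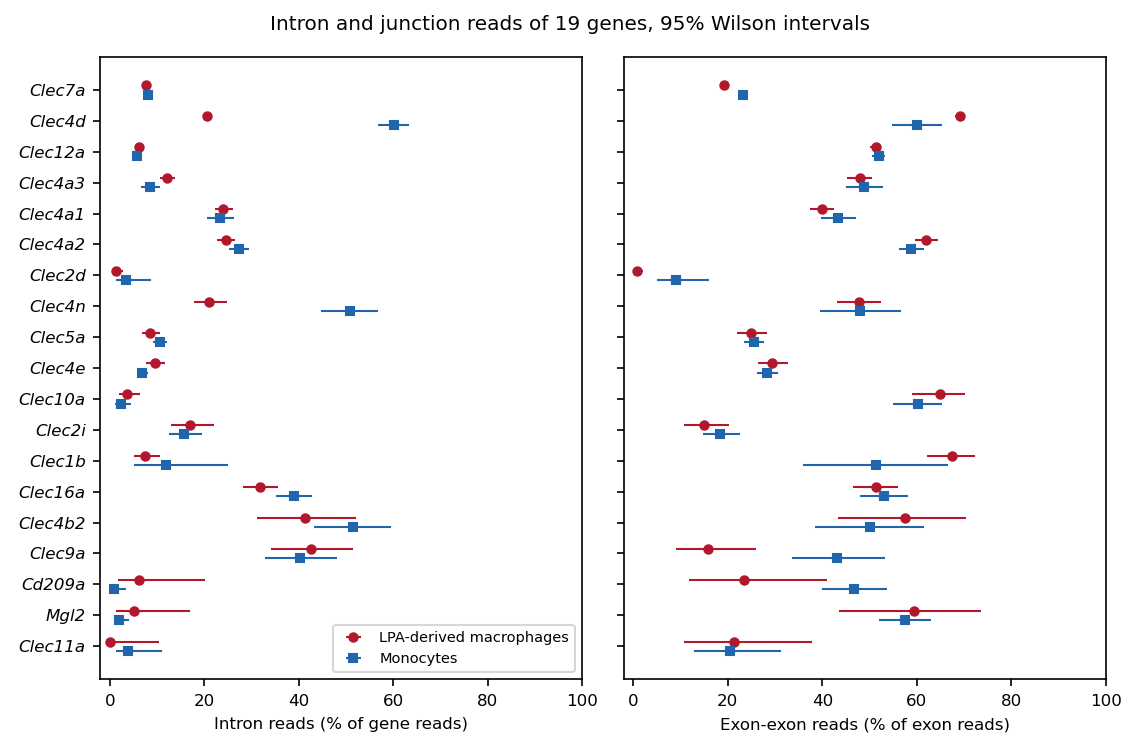
Left, intron reads as a percentage of gene reads, and right, reads across exon junctions as a percentage of exon reads, with 95% Wilson intervals. Circles are the macrophage and squares the monocyte library: Clec4d and Clec4n stand apart between libraries on the left, and Clec2d is the lowest gene on the right with 0.774% and 9.09%.

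Of 18 genes that carry the signal of these receptors, all reached 5 CPM and 14 lay within 2-fold. In macrophages 1 was higher and 3 were lower, where 33.8% of all genes were past 2-fold either way, with a median log2 ratio of -0.33 against -0.23 for all genes. Syk stood at 558.5 CPM in macrophages and 471.6 CPM in monocytes, a ratio of 1.18 (1.15 to 1.22). The adaptor genes were higher but within 2-fold. Tyrobp stood at 972.5 CPM in macrophages and 491.9 CPM in monocytes, a ratio of 1.98 (1.92 to 2.04). Fcer1g stood at 601.5 CPM in macrophages and 339.8 CPM in monocytes, a ratio of 1.77 (1.71 to 1.84). Relative to the median of all genes both adaptors were past 2-fold.

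Below Syk, Card9, the adaptor that links Syk to NF-kappaB, stood at 59.1 CPM in macrophages and 124.2 CPM in monocytes, 2.10-fold lower (1.94 to 2.28). Plcg2, a phospholipase activated by Syk, was 2.22-fold lower, and Lcp2, the scaffold SLP-76, was 2.21-fold lower. These 3 calls ended when ratios were taken relative to the median of all genes. Blnk, another scaffold of this pathway, stood at 147.8 CPM in macrophages and 7.38 CPM in monocytes, a ratio of 20.04 (16.3 to 24.9). The phosphatase genes of the inhibitory arm lay within 2-fold, with Ptpn6 at 382.1 CPM in macrophages and 470.9 CPM in monocytes.

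Of 15 cytokine and early response genes known to be induced through these receptors, 10 reached 5 CPM. Of these, 6 were at least 2-fold lower in macrophages (19.9% of all genes were), 1 was higher and 3 lay within 2-fold, with a median log2 ratio of -1.19. Relative to the median of all genes on log2(CPM + 1), 4 were lower, with Tnf and Ptgs2 just within 2-fold. Ccl4 stood at 17.3 CPM in macrophages and 85.6 CPM in monocytes, and Ccl3, a related chemokine gene, at 52.1 CPM in macrophages and 208.9 CPM in monocytes. Il6 had 28 reads in macrophages and 95 in monocytes. Egr2, the one higher gene, stood at 118.7 CPM in macrophages and 23.4 CPM in monocytes, a ratio of 5.07 (4.48 to 5.75). These genes answer to many other signals as well.

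A list of 20 other receptors with a C-type lectin domain, outside the Clec and Cd209 names, held 13 that reached 5 CPM. Of these, 6 were at least 2-fold higher, 7 were lower and none lay within 2-fold, where 33.8% of all genes were past it. Relative to the median of all genes on log2(CPM + 1), 6 were higher, 6 were lower and Selp lay within 2-fold. Cd72, an inhibitory receptor gene known from B cells, stood at 229.3 CPM in macrophages and 5.69 CPM in monocytes, a ratio of 40.3 (31.9 to 51.7). Of 5 B cell markers 3 reached 5 CPM, of which none was higher and 2 were lower (19.9% of all genes were). The 5 summed to 13.5 CPM in macrophages and 30.8 CPM in monocytes. The part of B cells in the Cd72 difference was not tested. Colec12, a scavenger receptor gene, stood at 36.5 CPM in macrophages and 1.36 CPM in monocytes. Mrc1, the mannose receptor gene, stood at 187.8 CPM in macrophages and 44.7 CPM in monocytes, a ratio of 4.20 (3.84 to 4.60).

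On the lower side, Cd69 stood at 2.93 CPM in macrophages and 75.4 CPM in monocytes, a ratio of 0.0389 (0.0286 to 0.0518). Olr1, a receptor of oxidised lipoprotein, stood at 2.57 CPM in macrophages and 37.3 CPM in monocytes. Mrc1 was thus on the opposite side from Mgl2, though both products take up glycoproteins.

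**Figure D5:**
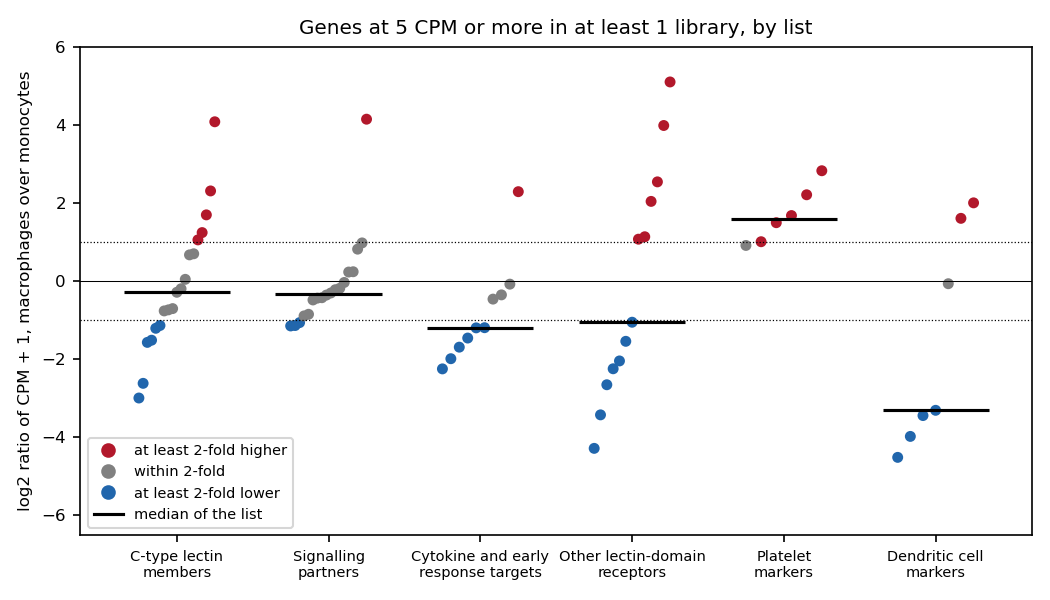
The log2 ratio of CPM + 1, macrophages over monocytes, for each gene at 5 CPM or more in at least 1 library, in the 19 members and in 5 lists, with a line at each median. Signalling partners cluster near 0 with Blnk at 4.15, no other lectin-domain receptor lies between the dotted 2-fold lines (Selp does relative to the median of all genes), and the platelet markers have a median of 1.59.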

How the data were processed

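RNA was measured in 1 library of LPA-derived macrophages and 1 of monocytes, and groups were taken from the titles. The authors deposited counts of unique reads per gene, exons, introns and exon junctions, per the file headers. RPKM values were deposited beside them. The signed fold change of the authors, a score per the file headers, divides normalized expression values, and these derive from gene reads, since the expression value equalled the gene read count in all genes (0 exceptions). The submitters' processing notes name mm9, yet of the 41 members 39 had the coordinates of GENCODE M21 on GRCm38 after adding 1 base to the start. The mapper: not given in the sources used here. Reads fitting several places are not in the unique counts, which lowers genes with close paralogs.

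Exon counts were scaled to CPM by the library sum (16726342 in macrophages, 12473180 in monocytes). A gene entered when either library reached 5 CPM (83.6 macrophage reads, 62.4 monocyte reads). Calls used 2-fold on log2(CPM + 1), and folds are CPM ratios with exact (Clopper-Pearson, conditional on the sum) intervals in scipy 1.17.1. TMM factors came from edgeR 4.0.16. The steps were tested on simulated data. All members at 5 CPM are described with values and the others by reads. From the other lists the genes with the largest ratios, a few fixed names, and further genes picked after their values were seen were named. Members and lists were chosen with earlier results of these data known. Start regions are RefSeq's, and where several were listed the first was used. Protein sequences were not used here.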

Additional observations from a re-analysis of the deposited data

How the results depend on the processing

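Intervals cover counting error of 2 libraries, without molecular identifiers, and members under 5 CPM had too few reads for most ratios. The counts of 5 higher and 6 lower members ranged from 3 to 6 and from 4 to 8 over 12 alternatives, 10 of them planned. The junction read count was added after seeing the data: it left 3 higher (Clec7a at 1.82 and Clec2d lost), a median of -0.17, and turned Clec2d to a ratio of 0.315 from 4 reads in macrophages and 10 in monocytes. Leaving out Clec2d, also added after seeing the data, gave 4 higher, 6 lower and a median of -0.49. The median of the members moved to -0.0716 at a floor of 10 CPM, -0.0498 after centring on all genes, -0.0692 with TMM scaling, -0.0732 without the top 20 genes and -0.0573 with the authors' deposited fold change. Of 114 folds of the 19 members under the alternatives, 65 stayed within the counting interval, 48 left it with the direction of every 2-fold call kept, and 1 reversed. Why values moved was not tested. No paired analysis was possible because each group has 1 library.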

Other observations

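Clec2g, a Clr family gene, had almost all of its reads in introns, with 25 intron reads against 1 exon read in macrophages and 336 intron reads against 3 exon reads in monocytes. It shares 23826 bases with the antisense gene Gm15987, which had 6 exon reads in macrophages and 37 in monocytes. With introns included Clec2g passed 5 CPM and was among the members at least 2-fold lower in macrophages, and the authors' deposited table gives a signed fold of -15.5. Clec12b likewise had 17 intron reads and 0 exon reads in macrophages, and 6 intron reads and 1 exon read in monocytes.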
